A study of Mus musculus with 18 samples.

Results

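The ileum of suckling mice was compared between postnatal day 9 and postnatal day 7. The comparison used 6 of the 18 arrays of the series, the 3 labelled 9 days old minus the 3 labelled 7 days old, and covered all 8631 genes that passed the filter on dim probe sets. All mice were C57BL/6, an inbred laboratory strain, and each array held RNA of 1 individual mouse. No treatment or altered gene is named for any group. The pieces held every layer of the gut wall, and each value is therefore a mixture of epithelium, muscle, nerves, vessels and blood-derived cells. The other arrays of the series came from 3 mice each on days 4, 11, 24 and 32. They served here to estimate the spread and to show what each gene did before and after. The question was which cell programmes start in the ileum in the middle of suckling.

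The gut of the newborn mouse is immature. Its enterocytes take up milk proteins into large endosomes, its crypts are still forming, and Paneth cells are few. Paneth cells are secretory cells of the crypt base that release lysozyme, alpha-defensins and lectins and lie beside the intestinal stem cells. IgA is supplied by milk at this age, and the polymeric immunoglobulin receptor, made by the pup's own epithelium, is the carrier that later moves IgA into the lumen.

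Values are log2 levels per probe set on Affymetrix arrays, made with RMA, so a difference of 1 is a doubling. Levels of different genes are not on a common scale and were compared only between arrays for the same probe set. Replicates are single mice, and the labels name no litter, sex or batch. In tissue of mixed cell types, more cells of a type and more RNA per cell cannot be told apart.

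The 6 arrays correlated with each other at 0.991 to 0.996 over all probe sets. Day 7 replicate 3 stood apart in 2 ways. It alone of the 6 was low in Xist, the RNA that coats the silenced X (4.69, against 9.64 to 10.02 on the other arrays) and high in the Y-linked gene Eif2s3y. It alone also lay in the higher group of the series by its hybridization controls, at a mean of 9.62, where the other 5 read 8.83 to 9.05. Its title carries the same number as that of day 9 replicate 2, although the ages and the Xist levels differ. Calls that depended on this array are given with and without it. The epithelial genes Cdx2 (8.95 and 9.00) and Vil1 (10.76 and 10.83 on days 7 and 9) were well measured. Of the genes typical of ileum, Cubn read 10.76 and 10.77 and Fgf15 read 7.26 and 7.75, whereas Slc10a2, the ileal bile acid uptake transporter, read 2.16 and 2.14, under the median of every array.

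Between day 7 and day 9, 4 genes rose and 0 fell (limma, adjusted p under 0.05). The genes were Itln1, Defa39, Lyz1 and Pigr. They make up 0.0463% of the genes tested, against 0% lower. At an unadjusted p under 0.05 there were 208 genes (2.41%), 79 higher (0.915%) and 129 lower (1.49%). The 3 arrays of day 9 lay wholly above those of day 7 for 464 genes (5.38%) and wholly below them for 528 (6.12%). The mean was higher on day 9 for 53.5% of genes and lower for 46.5%, and the median difference over all genes was 0.01. The neighbouring steps held as few calls, with 4 genes higher (0.0463%) and 3 lower (0.0348%) from day 4 to day 7, and 3 higher (0.0348%) and 1 lower (0.0116%) from day 9 to day 11.

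**Figure D1:**
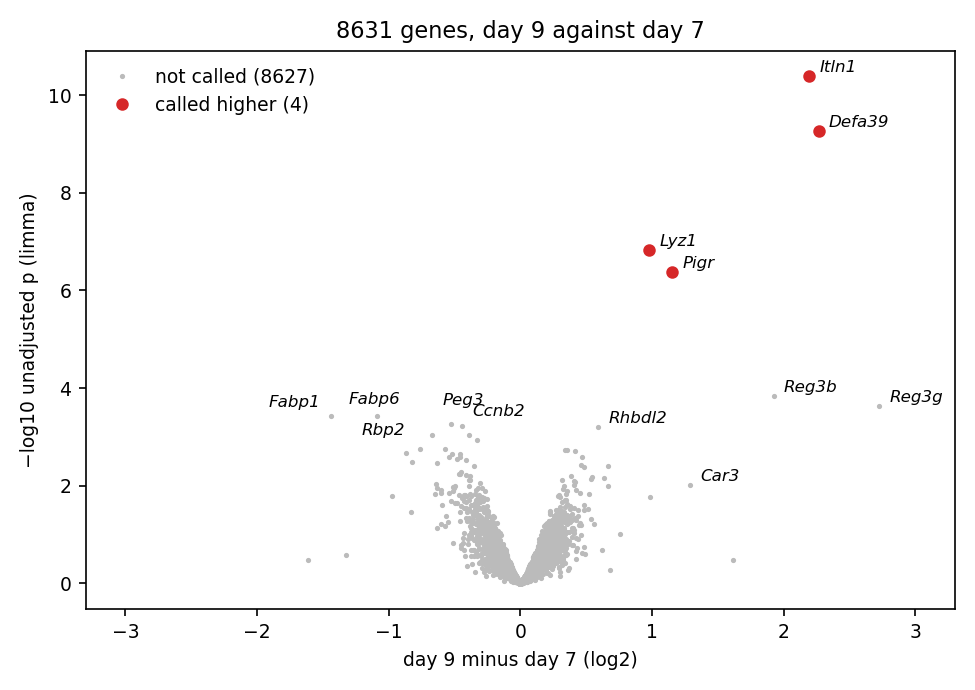
Difference in log2 level between day 9 and day 7 (horizontal axis) against −log10 of limma's unadjusted p (vertical axis) for 8631 genes, 1 point a gene. Itln1, Defa39, Lyz1 and Pigr, in red, passed the adjusted threshold, and Reg3b, Reg3g, Fabp1 and Fabp6 lie next to them in size without passing it.

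Paneth cell products made up 3 of the 4 genes that rose. Itln1 encodes intelectin, a lectin of Paneth and goblet cells that binds microbial sugars. It read 5.29, 5.23 and 5.24 on the day 7 arrays and 7.34, 7.53 and 7.46 on those of day 9. The groups were far apart and each was tight. Itln1 rose 4.57-fold (log2 difference 2.19 ± 0.15, SE, n = 3 against 3, adjusted p = 3.52e-07). Its mean had been 5.73 ± 0.32 on day 4 (SD, n = 3), and it was 8.44 ± 0.29 on day 11 and 12.07 ± 0.16 on day 24. The step from day 9 to day 11 also passed (1.00 ± 0.15, adjusted p = 0.0196), and the step from day 4 to day 7 did not (−0.48 ± 0.15, adjusted p = 0.469).

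Defa39 encodes an alpha-defensin, one of the small antimicrobial peptides stored in Paneth cell granules. Its arrays read 5.67, 5.60 and 5.58 on day 7 and 7.96, 7.86 and 7.83 on day 9, again without overlap. The gene rose 4.81-fold (log2 difference 2.27 ± 0.19, adjusted p = 2.38e-06). Its mean had been 5.54 ± 0.43 on day 4 and 5.62 ± 0.05 on day 7. Afterwards it stood at 8.60 ± 0.39 on day 11 and 12.90 ± 0.05 on day 24. Its probe set is of a kind that can read near-identical transcripts, and alpha-defensins are a family of close copies, so the value is uncertain as to which member it counts.

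Other probe sets of the family did not all move alike. A probe set annotated to more than 1 alpha-defensin gene read 3.90, 4.09 and 4.28 on day 7 and 6.94, 7.37 and 7.22 on day 9. The fitted difference was 3.09 ± 0.18 (adjusted p = 9.46e-08 over 14075 probe sets tested singly). On day 7 this set lay near the medians of the 18 arrays, 3.88 to 3.97, a level not shown to be above background. A set annotated to 2 other alpha-defensin genes read 11.24 and 11.68 (0.43 ± 0.12, unadjusted p = 0.00174) and was not called, although its arrays did not overlap. The sets of Defa31 (4.61 and 4.73, 0.12 ± 0.22) and Defa3 (2.68 and 2.58, −0.10 ± 0.11) had arrays that overlapped.

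Lyz1 encodes the lysozyme of Paneth cells, which cuts bacterial cell walls. It was already well measured, at 8.77, 8.73 and 8.63 on day 7, and read 9.61, 9.89 and 9.57 on day 9. The rise was 1.97-fold (log2 difference 0.98 ± 0.12, adjusted p = 4.32e-04), from a mean that had been 9.00 ± 0.19 on day 4 and was 10.26 ± 0.10 on day 11. A second probe set of Lyz1 gave 1.14 ± 0.16 (adjusted p = 0.00448). Like the set that stands for the gene, it is of a kind that can read near-identical transcripts, so it is not an independent check. Another probe set of Lyz1 read 3.10 on day 7 and 3.24 on day 9, below the array medians. It differed by 0.13 ± 0.55, with arrays that did not overlap, and is too dim to decide whether Lyz1 rose. Lyz2, the lysozyme of macrophages and a close copy of Lyz1, read 6.74 and 7.16, with arrays that overlapped (0.43 ± 0.20, unadjusted p = 0.0498). Of 12 macrophage and dendritic cell genes tested, Lyz2 included, 8 had a lower mean on day 9, and the median difference was −0.03.

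Of 17 genes listed for Paneth cells, 10 were measured and 9 were tested. Of these, 3 rose and 0 fell, 4 had arrays wholly higher on day 9 and 2 wholly lower, and the median difference was 0.22 against 0.01 for all genes. Among all genes 0.0463% were called higher, 5.38% had arrays wholly higher and 6.12% wholly lower. The list's median was 0.084 without day 9 replicate 1, 0.11 without day 9 replicate 3 and 0.022 with array weights. Mmp7, the protease that activates alpha-defensins, read 6.87 ± 0.13 on day 7 and 7.10 ± 0.02 on day 9 (0.22 ± 0.18). Ang4, an antimicrobial ribonuclease, read 7.74 ± 0.35 and 8.04 ± 0.69. Neither difference passed the test. On the other side, the pentraxin Mptx1 read 7.06 on day 7 and 6.46 on day 9 (−0.60 ± 0.22) and Nupr1, a stress-induced nuclear protein, 7.34 and 6.93 (−0.41 ± 0.18). Neither passed the adjusted threshold in the reported fit. Mptx1 passed when only arrays of the lower hybridization group were fitted, and both passed with array weights. The weights were 9.47 for day 9 replicate 2 and 0.96 and 1.34 for the other day 9 arrays. Their estimation stopped before its tolerance, so the day 9 values of that setting rest mostly on 1 mouse. The genes that rose are the lectin, the alpha-defensin and the lysozyme of the list.

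**Figure D2:**
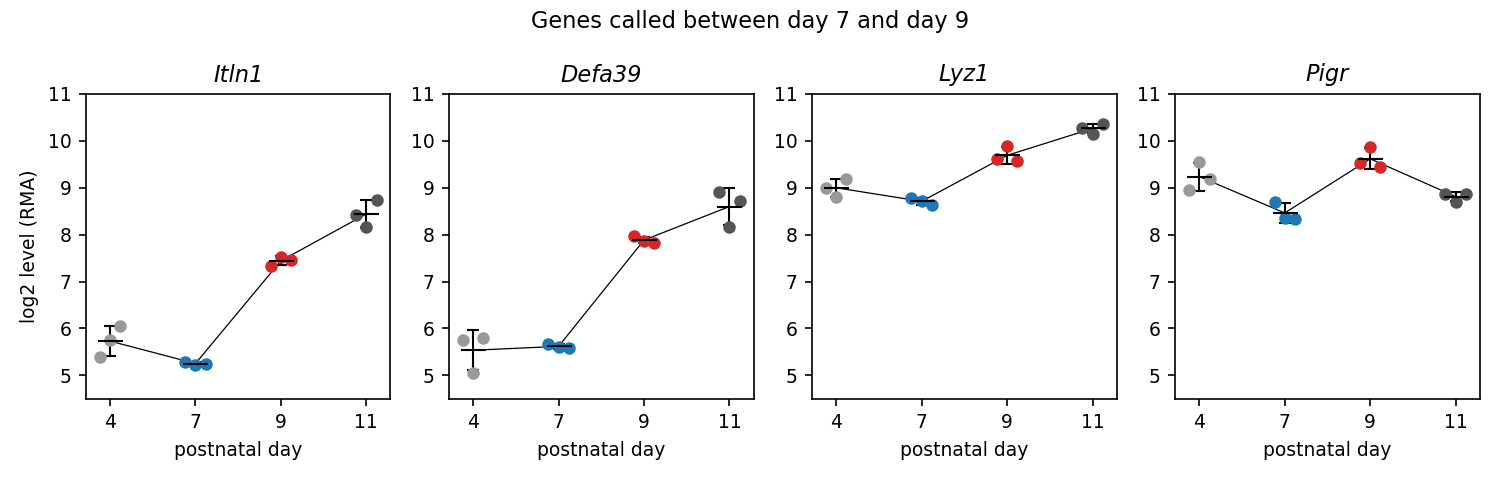
Log2 level of Itln1, Defa39, Lyz1 and Pigr on days 4, 7, 9 and 11, with 1 point an array, a horizontal mark at the mean and bars of 1 SD (n = 3). The day 9 points lie above all day 7 points in each panel, and Pigr alone has a lower mean on day 11 (8.81) than on day 9 (9.62).

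Pigr, the polymeric immunoglobulin receptor, was the fourth gene that rose. It read 8.71, 8.35 and 8.34 on day 7 and 9.54, 9.87 and 9.45 on day 9. The lowest day 9 array was above the highest day 7 array, and the rise was 2.23-fold (log2 difference 1.15 ± 0.15, adjusted p = 9.12e-04). A second probe set gave 1.29 ± 0.19 (adjusted p = 0.00731). The neighbouring ages had lower or similar means: 9.24 ± 0.30 (day 4), 8.46 ± 0.21 (day 7), 9.62 ± 0.22 (day 9) and 8.81 ± 0.09 (day 11). The steps to day 7 (−0.78 ± 0.15, adjusted p = 0.0592) and to day 11 (−0.81 ± 0.15, adjusted p = 0.0693) did not pass the threshold. Genes of the receptor's cargo were dim. Igha, the IgA heavy chain, read 4.24 and 4.37, and Jchain, the joining chain of IgA, 2.33 and 2.54, near or below the array medians.

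Itln1 and Defa39 were called under each of the alternatives fitted by gene. When only arrays of the lower hybridization group were fitted, which leaves out day 7 replicate 3, Lyz1 differed by 0.94 (adjusted p = 0.0521) and Pigr by 1.09 (adjusted p = 0.0812). With only the 10 arrays of high Xist level, the same differences had adjusted p = 0.0808 and 0.428. Leaving out day 7 replicate 3 alone kept both calls (adjusted p = 0.00598 for Lyz1 and 0.0122 for Pigr).

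Of the genes that rose, Defa39 had no entry among the promoter sequences used. The promoters of the others, Itln1, Lyz1 and Pigr, are shown so that they can be compared. They are RefSeq sequences of GRCm38.p6, the 120 bases before the first base of the gene, 5′ to 3′ on the gene's own strand. The capitals mark a match found by search on either strand. For Pigr (chr1:130826564-130826683, plus strand) this is CACGTG, an E-box. Lyz1 (chr10:117292869-117292988, minus strand) held no match. Itln1 (chr1:171535326-171535445, minus strand) held none in the stretch shown. Its one match, TTTATG, the core of CDX sites, lay in the 31 bases between the start used for the search and the first base of the gene's RefSeq extent, which are not printed.
Itln1: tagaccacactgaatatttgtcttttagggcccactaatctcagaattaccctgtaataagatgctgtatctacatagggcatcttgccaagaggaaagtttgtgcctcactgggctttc
Lyz1: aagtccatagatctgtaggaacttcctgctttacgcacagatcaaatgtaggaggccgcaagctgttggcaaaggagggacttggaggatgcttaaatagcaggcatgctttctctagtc
Pigr: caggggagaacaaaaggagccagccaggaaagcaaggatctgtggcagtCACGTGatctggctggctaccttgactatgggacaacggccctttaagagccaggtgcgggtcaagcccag
The search took in 250 bases before each start. Both strands were searched. The letters were TATAAA for the core promoter box, CTTTGA for the TCF/LEF factors and TTTATG for the CDX factors. They were also AGATAA for the family of Gata4, CACGTG for the E-box of USF type and CAGCTG for the E-box of ATOH1 type. The last motif was TTTCNNTTT for interferon response elements. Of 32851 windows of the same length, 10.8% held TTTATG and 6.02% held CACGTG. A match describes the letters alone. No letters searched for were common to the 3 promoters.

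Among microbe-responsive genes of the epithelium, the lectins Reg3b and Reg3g had the largest differences, although neither was called. Reg3b and Reg3g are secreted antimicrobial lectins of enterocytes and Paneth cells. Reg3b read 8.38, 7.98 and 8.64 on day 7 and 11.46, 9.27 and 10.04 on day 9. Reg3g read 4.82, 4.53 and 4.85 on day 7 and 9.56, 6.28 and 6.52 on day 9. In both genes every day 9 array lay above every day 7 array, and day 9 replicate 1 was the highest. Neither passed the threshold, with log2 differences of 1.92 ± 0.40 (adjusted p = 0.250) for Reg3b and 2.72 ± 0.59 (adjusted p = 0.338) for Reg3g. Without day 9 replicate 1 the differences were 1.32 and 1.67. Without day 9 replicate 2, the lowest day 9 array, they were 2.42 and 3.31, and Reg3b then passed (adjusted p = 0.0104). On day 4 Reg3b read 9.41, 8.14 and 8.35, and Reg3g read 6.34, 4.72 and 6.00. In both genes the highest day 4 array thus lay above the lowest of day 9. On day 11 the means were 8.45 ± 0.20 for Reg3b and 5.14 ± 0.27 for Reg3g, beside 8.33 and 4.73 on day 7. On day 24 both were far higher, at 12.28 and 13.22.

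Of 9 genes tested in the list of microbe-responsive epithelial defence, 8 had a higher mean on day 9, 4 had arrays that did not overlap, and 1, Pigr, was called; the median difference was 0.42. Among all genes 53.5% had a higher mean, 5.38% had arrays wholly higher and 0.0463% were called higher. With the filter set on the mean of the 6 arrays, 4 members were tested and their median was 1.54. That filter can keep a member through its day 9 level alone. Reg3g, at a mean of 4.73 on day 7 and 7.45 on day 9, passed it in this way. The higher median is therefore in part built in by the filter. Several of the other members were dim. Reg3a read 3.44 and 3.56, Retnlb 2.85 and 2.90 and Saa1 3.05 and 3.72, all with overlapping arrays. Sprr1a, a small proline-rich protein of stressed epithelium, read 5.41 and 5.83 (0.42 ± 0.26).

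Reg3b and Reg3g are close copies that lie on opposite strands of chromosome 6, and the stretch before their starts is shown because the 6 arrays had the same rank order in both genes. The sequences are the 60 bases before the RefSeq starts (GRCm38.p6), at chr6:78370825-78370884 on the plus strand for Reg3b and chr6:78468875-78468934 on the minus strand for Reg3g. The capitals mark the longest run they share within the 250 bases before the start, 20 bases.
Reg3b: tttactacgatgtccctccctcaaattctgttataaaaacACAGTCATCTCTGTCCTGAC
Reg3g: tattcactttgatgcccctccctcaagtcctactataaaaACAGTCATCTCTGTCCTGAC
Both hold TATAAA within this stretch, as do 12.4% of all windows anywhere in their 250 bases. A second probe set of Reg3b, which can read near-identical transcripts, gave 2.28 ± 0.53 (adjusted p = 0.506 among all probe sets).

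By p, the lower side was led by carriers of lipids and bile acids, none of which passed at the level of genes. Fabp1, the liver-type fatty acid binding protein, read 11.36, 11.32 and 11.81 on day 7 and 9.77, 10.46 and 9.93 on day 9. The arrays did not overlap, and the day 9 mean was 2.72-fold lower (log2 difference −1.44 ± 0.33, adjusted p = 0.411). A second probe set of Fabp1, dimmer than the one that stands for the gene, was lower by more, at −1.71 ± 0.27 (10.98 to 9.26), and passed when all probe sets were tested singly (adjusted p = 0.0143). The mean of Fabp1 had been 12.53 ± 0.34 on day 4 and was 10.38 ± 0.35 on day 11.

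Fabp6, which carries bile acids through the ileal enterocyte, read 7.83, 7.25 and 7.61 on day 7 and 7.15, 6.23 and 6.05 on day 9. The highest day 9 array lay just under the lowest of day 7, and the log2 difference was −1.09 ± 0.25 (adjusted p = 0.411). Without day 9 replicate 1, the array nearest to day 7, it was −1.42 and passed (adjusted p = 0.0103). The mean was lower at each age from day 4 to day 11, at 8.30, 7.56, 6.48 and 5.77, and no step passed on its own. On day 24 the mean of Fabp6 was far higher, at 13.09 ± 0.19. Of 10 bile acid genes tested, 6 had a higher and 4 a lower mean on day 9, and the median was 0.01. Fgf15, the ileal hormone that restrains bile acid synthesis, read 7.26 ± 0.30 and 7.75 ± 0.30 (0.49 ± 0.41), and the basolateral bile acid transporter Slc51a 9.79 and 9.88.

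**Figure D3:**
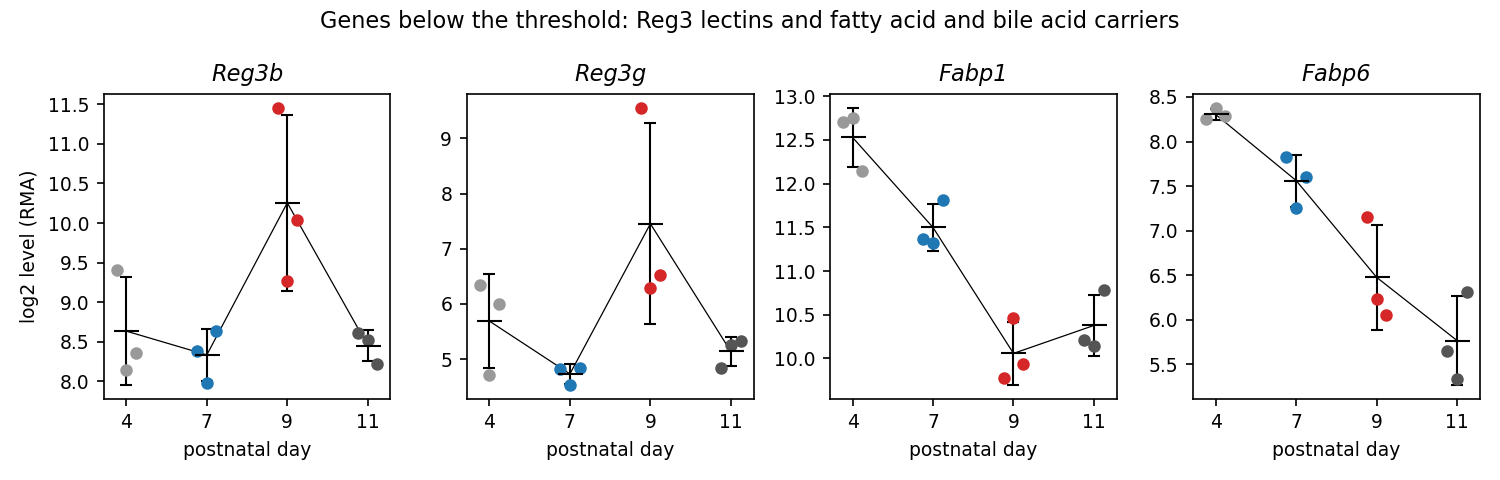
Log2 level of Reg3b, Reg3g, Fabp1 and Fabp6 on days 4, 7, 9 and 11, with 1 point an array, a mark at the mean and bars of 1 SD (n = 3), each panel on its own scale. Of these ages the Reg3 means stand highest on day 9, where day 9 replicate 1 lies far above the other arrays. The mean of Fabp6 is lower at each later age shown.

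Fabp2, the intestinal fatty acid binding protein, and Rbp2, the cellular retinol binding protein of enterocytes, were also among the 12 lowest by p. Fabp2 read 12.65, 12.60 and 12.70 on day 7 and 12.11, 12.32 and 12.34 on day 9 (−0.39 ± 0.10). Rbp2 read 10.32, 10.16 and 10.28 on day 7 and 9.42, 9.79 and 9.54 on day 9 (−0.67 ± 0.17). Both had adjusted p = 0.606. Asah2, the brush border ceramidase, read 8.51 ± 0.12 and 7.64 ± 0.20 (−0.87 ± 0.24, adjusted p = 0.887), and it passed when only these 6 arrays were fitted (adjusted p = 0.0488), as did Fabp1 (0.0439). In the list for lipoprotein assembly and fat absorption, 14 of 19 members had a lower mean on day 9, where 46.5% of all genes did. Only Fabp1 and Fabp2 among them had arrays that did not overlap on the lower side. Of the apolipoproteins, Apoa1 read 13.63 at both ages, Apoa4 13.36 and 13.29, and Apob 11.02 and 10.80. The median of the list was −0.06.

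Most cell cycle genes had slightly lower levels on day 9. Of 23 tested, 0 were called, 21 had a lower mean and 14 had arrays wholly below those of day 7, where 6.12% of all genes did. At an unadjusted p under 0.05, 11 members were lower and 0 higher, where 1.49% and 0.915% of all genes were. Ccnb2, a cyclin of mitosis, read 7.59, 7.56 and 7.71 on day 7 and 7.26, 7.05 and 7.21 on day 9 (−0.45 ± 0.11, adjusted p = 0.489). Cdk1, its kinase partner, read 7.52 ± 0.13 and 7.17 ± 0.11, and Mki67, the marker of dividing cells, 9.21 ± 0.15 and 8.86 ± 0.14. Each of these differences was small, and none passed the reported test over all genes. With array weights, a setting that called 72 genes higher and 135 lower of all 8631, 10 of the 23 were called. Among them were Ccnb2 (adjusted p = 6.53e-04), Cdk1 (0.00855) and Mki67 (0.0499). That setting gave day 9 replicate 2 a weight of 9.47, far above the other day 9 arrays.

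Bub1 of the spindle checkpoint differed by −0.51 ± 0.18 and the mitotic ubiquitin enzyme Ube2c by −0.46 ± 0.15. The replicative helicase subunits Mcm2 to Mcm7 ranged from −0.29 ± 0.12 (Mcm7) to −0.12 ± 0.12 (Mcm6). Pcna, the replication clamp (0.01 ± 0.15), and Ccne1, the cyclin of S phase entry (0.17 ± 0.16), had a mean no lower on day 9. The median of the list was −0.30, and it lay between −0.34 and −0.23 over the alternatives. When each gene was centred on its mean of the 6 arrays, the list's median was 0.14, 0.08 and 0.18 on the day 7 arrays and −0.06, −0.21 and −0.12 on the day 9 arrays. The day 9 arrays had 17, 22 and 21 of the 23 genes under their own mean, against 3, 7 and 4 on day 7. In the step before, the list's median difference was 0.02, and in the step after −0.02.

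**Figure D4:**
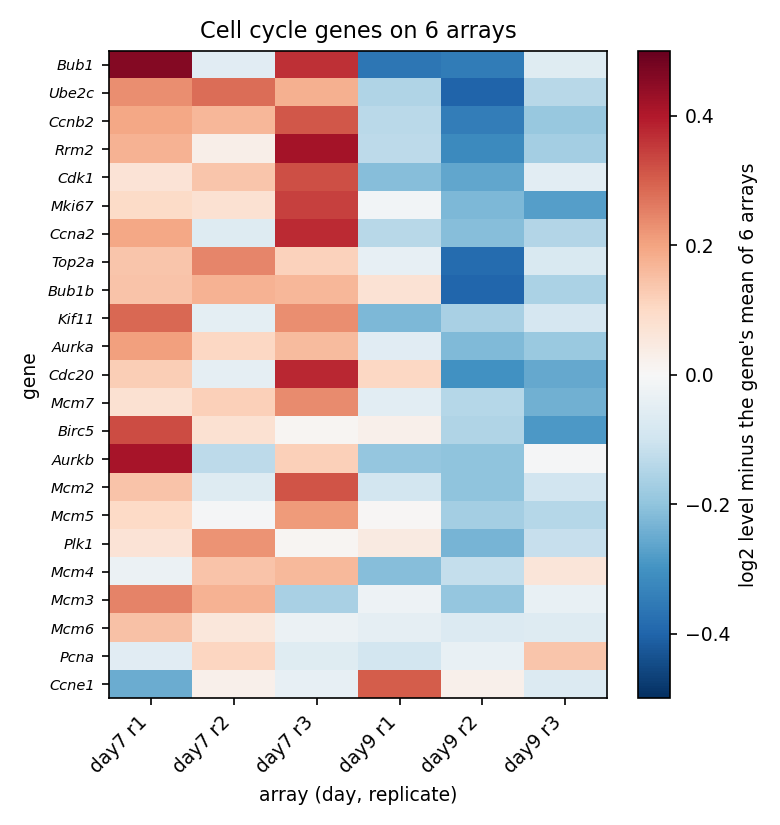
Log2 level of 23 cell cycle genes on each of the 6 arrays, as the difference from the gene's mean over the 6 (colour, red above and blue below; genes in order of their difference between the ages). Day 9 replicate 2 has 22 of the 23 genes below their mean and day 7 replicate 1 has 3.

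Genes of crypt stem cells had no call. Of 11 tested, 8 had a higher and 3 a lower mean on day 9, and the median was 0.05. Olfm4, a secreted protein of crypt base cells, read 9.90, 9.82 and 9.61 on day 7 and 10.19, 10.17 and 10.33 on day 9 (0.46 ± 0.17, unadjusted p = 0.0142). Its arrays did not overlap. Lgr5, the receptor that marks intestinal stem cells, read 5.99, 5.68 and 6.47 on day 7 and 6.07, 6.43 and 6.38 on day 9, with overlap (0.25 ± 0.22). Rgmb, a membrane protein of the same cells, was the only member with arrays wholly lower (−0.13 ± 0.10). None passed the adjusted threshold in the reported fit. With array weights, which called 72 genes higher and 135 lower over all genes, Lgr5 (0.48, adjusted p = 0.0472) and Olfm4 (0.36, adjusted p = 0.0454) passed. That setting gave a weight of 9.47 to day 9 replicate 2, the day 9 array highest in Lgr5.

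The imprinted genes of growth form a network that is active in the fetus and switched down after birth. Of 11 tested, 9 had a lower mean on day 9 (46.5% of all genes), 5 had arrays wholly lower (6.12% of all genes), and 0 were called; the median difference was −0.33, and it was −0.20 without day 7 replicate 3 and −0.21 with array weights. Peg3, a zinc finger gene, read 8.77, 8.80 and 8.74 on day 7 and 8.29, 8.30 and 8.15 on day 9. This difference of −0.53 ± 0.12 had adjusted p = 0.489. Grb10, which restrains insulin signalling, read 8.64 ± 0.04 and 8.31 ± 0.01, and Igf2, the fetal growth factor, 10.18 ± 0.13 and 9.75 ± 0.04. Dlk1 differed by −0.83 ± 0.36 and Mest by −0.45 ± 0.18. Igf2r, the receptor that removes IGF2, went the other way (0.27 ± 0.16). The step before had a median of 0.00 in this list and the step after likewise.

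The genes of cholesterol synthesis showed small differences, nearly all of 1 sign. Of 14 tested, 13 had a lower mean on day 9 (46.5% of all genes) and 8 had arrays wholly lower (6.12%), with 0 called and a median of −0.20. Hmgcs1, the enzyme that makes HMG-CoA for the pathway, read 10.51 and 10.24 (−0.27 ± 0.10), and Fdft1, squalene synthase, 8.71 and 8.38 (−0.33 ± 0.13). Sqle (−0.27 ± 0.22), Idi1 (−0.28 ± 0.20) and Insig1 (−0.26 ± 0.17) differed by about as much with larger errors. Stard4, a cholesterol carrier, was the exception at 0.33 ± 0.25.

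**Figure D5:**
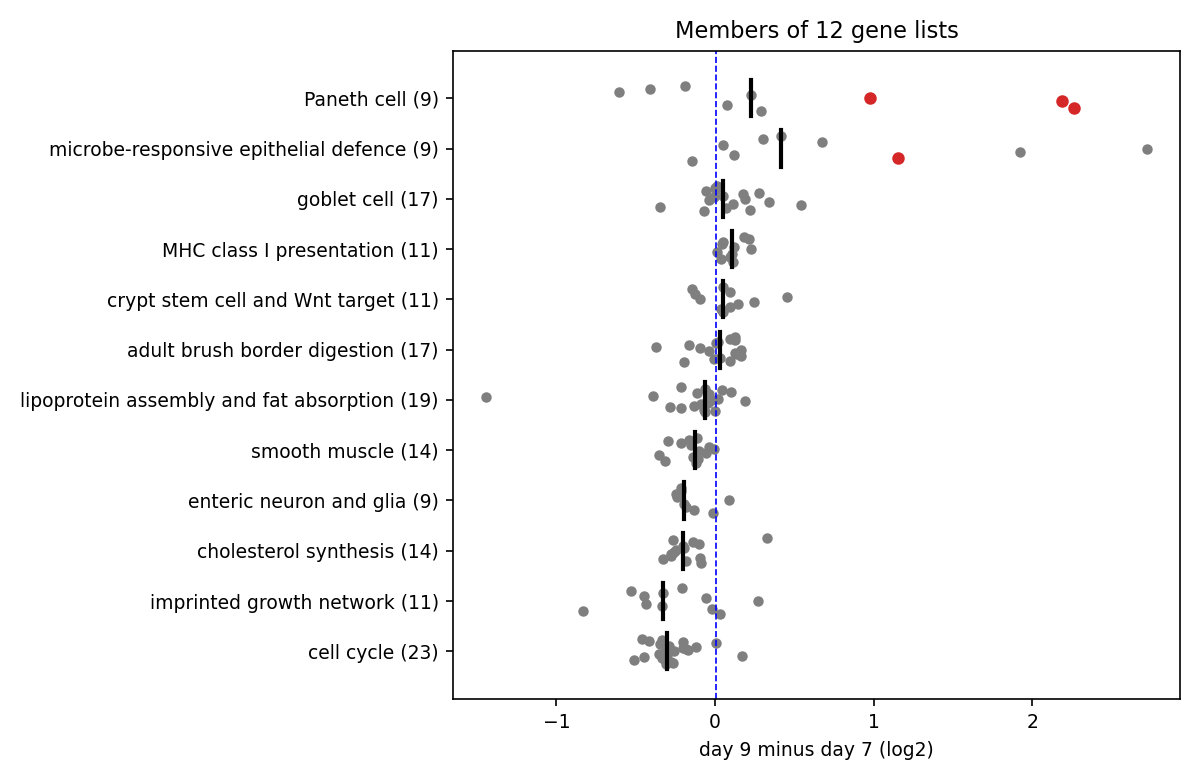
Difference in log2 level between day 9 and day 7 for the tested members of 12 gene lists, with 1 point a gene, a black mark at the list's median, red points for genes called, and a dashed line at the median of all genes. The Paneth cell and microbe-responsive lists hold the 4 genes called, and the lists for cell cycle, imprinted growth and cholesterol synthesis have medians of −0.30, −0.33 and −0.20.

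In the lists of other secretory cells no gene was called. Of 17 goblet cell genes, 0 were called, 12 had a higher mean (53.5% of all genes) and 3 had arrays wholly higher (5.38%), with a median of 0.05, which was 0.014 without day 7 replicate 3 and 0.0036 with array weights. The mucin Muc2 was at 11.26 on both days. Clca1, a secreted goblet cell protein, read 10.14, 9.91 and 10.02 on day 7 and 10.60, 10.33 and 10.77 on day 9 (0.54 ± 0.18, unadjusted p = 0.00735). Spink4 (0.28 ± 0.14) and the transcription factor Foxa3 (0.34 ± 0.19) were the others without overlap. Of 11 enteroendocrine genes, 7 had a lower mean and the median was −0.02. Of 9 measured tuft cell genes, 0 passed the filter on dim probe sets.

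No digestive gene of suckling or of adult enterocytes was called. Lct, the lactase of milk digestion, read 11.08 and 11.22 (0.14 ± 0.35). Of 22 tested genes of suckling uptake and digestion, 16 had a higher mean, 4 had arrays wholly higher (5.38% of all genes) and 0 were called; the median was 0.13. Without day 7 replicate 3 the median was 0.013, with 11 genes higher and 11 lower. Folr1, a folate receptor, read 12.14, 12.08 and 11.55 on day 7 and 12.17, 12.19 and 12.31 on day 9, with day 7 replicate 3 the lowest. Prdm1, the repressor that maintains the suckling state, read 8.78 and 8.73. Of the adult enzymes, Treh (2.79 and 2.88) and Arg2 (2.38 and 2.48) were below the array medians at both ages. In the list of adult brush border digestion the median was 0.03, with 0 of 17 called.

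Antigen-presenting genes gave small values of 1 sign, which for MHC class I depended on 1 array. All 11 tested genes of MHC class I presentation had a higher mean on day 9 (median 0.11, 0 called), but without day 7 replicate 3 this was 6 of 11 with a median of 0.0032. All 6 tested genes of MHC class II presentation had a higher mean (median 0.20), among them Cd74 (8.90 and 9.14). Their median stayed between 0.14 and 0.25 under the alternatives. Of T cell genes only 4 of 17 measured were tested, of B and plasma cell genes 6 of 13, and of neutrophil and eosinophil genes 0 of 13. In none of these lists was a gene called.

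Genes of smooth muscle and nerve had slightly lower means. All 14 smooth muscle genes tested had a lower mean on day 9 with a median of −0.13 and 0 called, among them Actg2, the enteric actin (−0.32 ± 0.13), and Tagln (−0.30 ± 0.11), whose arrays did not overlap. The count was 13 of 14 after median centring and between 12 and 14 over all alternatives. Of 9 enteric neuron and glia genes, 8 had a lower mean (median −0.19; −0.063 without day 7 replicate 2 and −0.30 with array weights), with Tac1, the precursor of substance P, at 8.31 and 8.06. From day 4 to day 7 the median difference of each of these lists was 0.18. All 5 lymphatic endothelium genes tested also had a lower mean (median −0.17, between −0.24 and −0.085 over the alternatives). Of 11 blood vessel endothelium genes, 8 had a lower mean (median −0.04), and no gene of either list was called. Of 16 genes of Hedgehog, BMP and related signals, 9 had a higher mean and 7 a lower one (median 0.04), and all 3 genes of the interstitial cells of Cajal had a higher mean (median 0.02). Of 22 matrix and fibroblast genes 14 had a lower mean (median −0.06), which was 11 of 22 without day 7 replicate 3, and the median was 0.05 with array weights.

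Markers of tissue outside the gut wall were examined because a piece of gut can carry some along. Car3, a carbonic anhydrase of fat and muscle cells, read 3.72, 3.93 and 4.62 on day 7 and 4.87, 6.82 and 4.44 on day 9, with overlap and 1 high array. On day 11 it read 8.57 ± 0.60. Adipoq, the defining hormone of fat cells, was at 2.54 and 2.65, and the other adipocyte genes tested had differences between −0.19 and 0.15. The hepatocyte gene Alb (3.19 and 3.12), the acinar gene Cpa1 (3.10 and 3.03) and the erythroid gene Hbb-b2 (4.01 and 3.79) were near or below the array medians at both ages. Other members of the same lists were well measured. Ttr, a carrier of thyroid hormone made by hepatocytes, read 12.34 and 11.98, with arrays wholly lower on day 9 (−0.36 ± 0.17, unadjusted p = 0.0476), and Fga, a chain of fibrinogen, read 6.01 and 5.62 (−0.39 ± 0.16, unadjusted p = 0.0297). Of 4 hepatocyte genes tested, 3 had a lower mean (median −0.21). Of 3 acinar genes tested, 2 had a lower mean (median −0.05), with the elastase Cela1 at 6.49 and 6.06 (−0.44 ± 0.29) and the colipase Clps at 7.08 and 7.04. Of the 2 erythroid genes tested, Alas2 read 5.75 and 5.57 with overlap, and Tfrc 8.44 and 8.81 with arrays wholly higher (0.38 ± 0.18). The 2 skeletal and heart muscle genes tested had lower means, Tnnt2 at 7.28 and 6.85 (−0.43 ± 0.18) and Acta1 at 5.80 and 5.70. Among 3 mesothelium genes tested, 2 had a lower mean (median −0.20). These lists held 0 genes called, and their part in the other results was not tested.

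Whether a gene's change to day 9 differed from its change to day 7 was tested directly. The difference of the 2 steps, in which the day 7 arrays are shared, was tested over all genes. It was called higher in 4 genes and lower in 1 (0.0463% and 0.0116%). The 4 were the same genes, with 2.67 ± 0.27 for Itln1, 2.18 ± 0.32 for Defa39, 1.93 ± 0.26 for Pigr and 1.27 ± 0.20 for Lyz1. The last was Anxa8, an annexin of squamous and developing epithelia, at −1.68 ± 0.27. Anxa8 had risen from 6.44 ± 0.19 on day 4 to 7.55 ± 0.17 on day 7 (1.10, adjusted p = 0.00655) and read 6.97 ± 0.05 on day 9. The fall from day 7 to day 9 was −0.58 ± 0.16. A second probe set of Anxa8 fell by less, at −0.19 ± 0.26 (unadjusted p = 0.485), with arrays that overlapped. Its rise from day 4 to day 7 was without overlap. The day 7 mean enters both steps. Without day 7 replicate 2 or without day 7 replicate 3, Itln1 was the only gene called of these.

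The step to day 11 set against the step to day 9 was called in 1 gene (0.0116%) on the lower side and 0 (0%) on the higher. That gene was Pigr, at −1.96 ± 0.26 (adjusted p = 0.00481). Reg3b (−3.73 ± 0.69, adjusted p = 0.184) and Reg3g (−5.04 ± 1.03, adjusted p = 0.334) had larger values that did not pass. The Pigr contrast was also not called without day 9 replicate 2 (−1.71, adjusted p = 0.0521), or when the fit held the 12 arrays of days 4 to 11 alone (adjusted p = 0.0823).

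Beyond these groups the genes of smallest p on the higher side were Rhbdl2, a rhomboid protease (4.83 to 5.42), Nek3, a kinase (6.58 to 6.94), Cdkn2b, an inhibitor of cell cycle entry (7.55 to 7.89), and Calb2, the calcium binding protein calretinin (5.61 to 6.02). On the lower side they were Gatm, the first enzyme of creatine synthesis (7.92 to 7.16), Pid1 and Gpr151. Their arrays did not overlap between the ages. All had adjusted p-values of 0.489 or more.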

How the data were processed

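The deposited log2 values per probe set come from RMA, according to the submitters' processing notes (that is, the authors' own normalization); its version and options are not named there. The labelling protocol used an oligo-dT primer, per the labels. The table holds 45101 probe sets on 18 arrays. Of these, the platform annotation gives 34958 a single gene symbol, 932 several and 9211 none; 34754 matched the RefSeq gene table of GRCm38.p6. Probe sets that did not reach log2 6 on at least 3 arrays were left out. Each gene kept its brightest remaining probe set by 18-array mean, which left 8631 of 18194 genes. Probe sets of near-identical genes (alpha-defensins, lysozymes, Reg3 lectins) can read more than 1 transcript. The number of arrays limits the precision.

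The model was limma 3.58.1 under R 4.3.3, a linear fit with empirical Bayes moderation, 1 mean for each of 6 ages, all 18 arrays and 12 residual degrees of freedom. P-values were adjusted by Benjamini and Hochberg's method across the whole gene table and called under 0.05. Errors are the fit's standard errors for differences and standard deviations for levels. The fit was tested on simulated data.

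The members and the 52 gene lists (853 genes) were chosen with earlier results of these data known; the lists are described by counts and medians and carry no test. Named genes are the 12 of smallest p in each direction, up to 4 called members of a list or otherwise its 2 of smallest p, a set of sentinel genes, and the 3 of smallest adjusted p in each comparison of steps. Other list members given with values were chosen after their values were seen. Alternatives covered filters, probe set choice, normalization, moderation, array weights, the arrays fitted, the Xist level, the hybridization control group and each array left out. The fits with only arrays of high Xist level, without the suckling arrays of the higher hybridization group, and with every probe set tested were chosen after seeing the data.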

Additional observations from a re-analysis of the deposited data

Results flagged for a closer look

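The change from day 7 to day 9 differed from the change from day 4 to day 7 in 5 genes (limma, difference of the 2 steps, which share the day 7 arrays). For Itln1 it was 2.67 ± 0.27 on the log2 scale (adjusted p = 8.96e-05), for Pigr 1.93 ± 0.26 (adjusted p = 0.00298), for Defa39 2.18 ± 0.32 (adjusted p = 0.00812), for Lyz1 1.27 ± 0.20 (adjusted p = 0.0138) and for Anxa8 −1.68 ± 0.27 (adjusted p = 0.0138). Without day 7 replicate 2 or without day 7 replicate 3, only Itln1 of these stayed called. With the 12 arrays of days 4 to 11 alone, Defa39 and Lyz1 did not pass (adjusted p = 0.0563 for each). A second probe set of Anxa8 differed by only −0.19 ± 0.26 between day 7 and day 9, with arrays that overlapped. For Pigr the change from day 9 to day 11 also differed from the change to day 9, by −1.96 ± 0.26 (adjusted p = 0.00481). That contrast did not pass without day 9 replicate 2 or with the 12 arrays alone.

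Probe sets outside the gene table were also called when all 14075 were tested singly. A set annotated to more than 1 alpha-defensin gene was higher on day 9 by 3.09 ± 0.18 (adjusted p = 9.46e-08), against a day 7 level near the array medians that was not shown to be above background. A pair of sets that the annotation used here does not list were higher by 2.34 ± 0.14 (adjusted p = 1.29e-07; 8.25 on day 7 and 10.59 on day 9) and 2.24 ± 0.16 (adjusted p = 5.86e-07; 6.27 and 8.51). Their gene is unnamed here. Of the 11 probe sets called singly, 9 higher and 2 lower, 7 were not the set that represents a gene in the table: 2 have several symbols, 2 are not listed, and 3 are second sets of Lyz1, Pigr and Fabp1.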

How the results depend on the processing

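No paired analysis was run, because each array held RNA of 1 individual mouse. The titles of days 7 and 9 share only 1 number, and the arrays that carry it differ in Xist level. Itln1, Defa39, Lyz1 and Pigr stayed called without any single array of the 6. The count of genes higher (4) was 72 with array weights, 9 with every probe set tested, 2 with only arrays of high Xist level and 2 within the lower hybridization group; without 1 array it ranged from 4 to 5. The count lower (0) was 135 with array weights, 2 with every probe set tested, 2 with no filter (Hal and Krt14), 2 with only the 6 arrays of days 7 and 9 (Asah2 and Fabp1) and 1 within the lower hybridization group; without 1 array it ranged from 0 to 1. The count at an unadjusted p under 0.05 (208) was 1508, 99 at a log2 8 filter, 475 with no filter, 515 with only the 6 arrays and 482 within the lower hybridization group; without 1 array it ranged from 127 (day 7 replicate 3) to 237. The weight estimation stopped before its tolerance and gave day 9 replicate 2 a weight of 9.47. For the step to day 9 against the step to day 7, genes higher (4) were 2 with the 12 arrays of days 4 to 11 and 1 to 4 without 1 array, and genes lower (1) were 2 with no filter and 0 to 1 without 1 array. For the step to day 11 against the step to day 9, genes lower (1) were 0 with the 12 arrays. The cause was not tested.

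The values that changed sign belonged to genes that were not called, the sex-linked pair included. Without day 7 replicate 3, with high-Xist arrays, within the lower hybridization group and without the 4 suckling arrays of the higher group, Eif2s3y was 0.15, Xist −0.14 and Slc10a2 0.0054; with Xist as a covariate Eif2s3y was 0.0024 and Xist 0. Eln (−0.32) was 0.069 with array weights, Kit −9.37e-06 with cyclic loess and −0.0064 with quantile normalization, and Muc2 0.0041 with the hybridization group as a block and 0.0046 with median centring. Without 1 array the ranges were −0.33 to 0.018 for Alas2 (−0.18 with all arrays), −0.11 to 0.032 for Clps, −2.52 to 0.15 for Eif2s3y, −0.079 to 0.24 for Igha, −0.074 to 0.15 for Kit, −0.061 to 0.048 for Muc2, −0.092 to 0.031 for Slc10a2, −0.031 to 0.17 for Treh, −0.14 to 2.51 for Xist and −0.20 to 0.024 for Zap70.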

Other observations

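A probe set annotated to several symbols, and therefore not assigned to a gene, read 9.19, 9.23 and 8.75 on the day 7 arrays and 7.87, 7.70 and 7.76 on those of day 9 (−1.28 ± 0.19, adjusted p = 0.00731 among all probe sets). Its mean had been 9.22 on day 4 and was 7.53 on day 11.

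Oxidant defence genes had mostly higher means on day 9, at 12 of 14 tested, with a median of 0.18 and 0 called. The median was 0.056 with array weights (9 of 14 higher), 0.070 with the hybridization group as a block and 0.074 without day 7 replicate 3 (11 of 14). Gclc, the rate-limiting enzyme of glutathione synthesis, read 8.36, 7.89 and 8.80 on day 7 and 8.65, 8.88 and 9.09 on day 9, with overlap (0.52 ± 0.19, unadjusted p = 0.0147). Per2, a repressor of the circadian clock, read 7.08, 7.30 and 7.26 on day 7 and 7.44, 7.71 and 7.94 on day 9 (0.49 ± 0.21, unadjusted p = 0.0319); the hour of sampling is not given in the sources used here. Phgdh, the first enzyme of serine synthesis, read 8.73, 8.48 and 8.56 on day 7 and 8.10, 7.97 and 7.89 on day 9 (−0.60 ± 0.22, unadjusted p = 0.012). Fkbp5, a target of the glucocorticoid receptor, read 5.90, 6.06 and 5.66 on day 7 and 5.54, 5.04 and 5.41 on day 9 (−0.54 ± 0.15, unadjusted p = 0.00255). Of 14 genes in the amino acid shortage list, which holds Phgdh, 7 had a higher and 7 a lower mean (median 0.01). Of 13 glucocorticoid-induced genes, Fkbp5 included, 6 were higher and 7 lower (median −0.0046). Of 11 clock genes, Per2 included, 9 were higher and 2 lower (median 0.13). No gene of these lists was called in the reported fit. Gclc, Per2, Phgdh and Fkbp5 passed with array weights, which gave day 9 replicate 2 a weight of 9.47.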
